A study of Mus musculus with 15 samples.

Results

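The transcripts followed here are those of 47 mouse genes of the interferon system, taken as a list by name: genes that interferons induce, genes for sensors of viral RNA and DNA, and genes for the processing of antigen. All 47 were found among the 43432 genes of the deposited count table. A total of 44 passed the filter on low counts and were tested with the rest of the 16736 genes that passed. The other 3 were Sp100, a nuclear body protein, with at most 5 reads in any library, Ifi44, a microtubule-associated induced protein, with at most 15, and Trim30a, a TRIM protein that restrains inflammatory signals in mice, with at most 3. The list was not chosen by any measured value. It was drawn up with earlier results of these data known.

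The cells were 266-6, a line from a mouse pancreatic acinar tumour, so every group is 1 cell line and carries the same genotype. They were kept for 24 h in stripped medium and for a further 24 h with ligand, and each treatment had 3 libraries. The groups were AM580, an agonist selective for the retinoic acid receptor RARα, AM580 and CD3254 together, 9-cis retinoic acid, which binds both the retinoic acid receptors (RARs) and the retinoid X receptors (RXRs), CD3254, an RXR agonist, and DMSO, the vehicle. The first 3 of these are called RAR ligand treatments below, and CD3254 serves as a second reference beside DMSO. The labels give no ligand concentration, name no interferon or nucleic acid as a treatment, and do not say whether replicates were separate cultures, which leaves the tests with the spread among libraries, possibly a technical one.

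Interferons are secreted proteins with which cells warn each other of viral infection. RNA of a virus in the cytoplasm is bound by the helicases RIG-I and MDA5, which signal through the adaptor MAVS to interferon regulatory factors (IRFs) and so to the interferon genes. Type I interferon then acts on its receptor and the Janus kinases, and a complex that holds STAT2 and IRF9 binds the interferon-stimulated response element (ISRE) in the promoters of very many genes, while type II interferon acts at gamma-activated sites (GAS). Many of these genes, the sensors among them, have a basal level without infection that rises with interferon. The RARs are nuclear receptors that bind DNA as heterodimers with an RXR, and acinar cells are the enzyme-secreting cells of the exocrine pancreas.

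The shallowest library was the third of 9-cis retinoic acid, with 14600962 gene reads, against 28501170 to 46801058 in the other 14. In that library 63.0% of the reads had no gene, against 18.1% to 28.5% elsewhere, and 11.5% of its gene reads were of ribosomal RNA type, against at most 1.81% elsewhere. It was the lowest library for Ifih1, Ifit1, Isg15 and Oas1b, among others, and the highest for Oasl1. The leading principal component of log2 CPM (counts scaled to a common library size with TMM factors) carried 48.3% of the variance and parted a set of 5 libraries, 1 of each treatment, from the other 10. The 5 were AM580 replicate 1, replicate 2 of AM580 with CD3254, 9-cis retinoic acid replicate 1, CD3254 replicate 1 and DMSO replicate 1. The summed level of 14 hypoxia-response markers ran from 6643 to 9348 CPM in these 5 and from 1097 to 1558 CPM in the other 10. Each result is therefore given from a fit on treatment alone and, beside it, from a fit with the library set as a term. Acinar markers were present, with a summed level of 8153 to 14560 CPM, although the amylase gene Amy2a5 had at most 37 reads and the lipase gene Pnlip at most 24. Markers of immune cells summed to between 4.98 and 25.01 CPM over 14 genes, of which 3 passed the filter, and the pan-leukocyte marker Ptprc had at most 5 reads in any library. The largest immune sum was that of AM580 replicate 1, and it came almost wholly from the lysosomal gene Cd68, at 23.9 CPM. The part of these markers, of depth and of the library set in the results was not tested. The treatment could be read in known RAR targets: Cyp26b1, for the enzyme that degrades retinoic acid, rose with the 3 RAR ligand treatments over DMSO and CD3254 by 3.98 ± 0.61 on the log2 scale (SE, edgeR FDR = 0.0499), and by 4.06 ± 0.22 with the library set term (edgeR FDR = 7.59e-07). CD3254 alone also moved this gene: over DMSO it was at 2.94 ± 0.91 on treatment alone (edgeR FDR = 1) and rose by 2.99 ± 0.37 with the set term (edgeR FDR = 0.0105), so CD3254 is not a reference in which the check gene stays at the vehicle level.

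The promoters of the list were searched for the letters of elements that interferon signalling and RARs use. RefSeq windows on GRCm38.p6, from 250 bases before to 50 after a gene's start, matched 36 of the 47 genes. The ISRE core, written GAAANNGAAA and searched on both strands, stood in 16 of these 36 genes (44.4%), against 3.99% of 27025 genes with such windows. Its longer form GAAANNGAAACT, which contains the core, stood in 9 of 36 (25%), against 0.303% of all. The GAS core TTCNNNGAA stood in 9 of 36 (25%), against 9.55%. A direct repeat of the retinoic acid receptor type with a spacing of 5 bases, written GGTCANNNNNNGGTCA, stood in 0 of 36, against 0.0999% of all. The pattern is so rare that 36 genes would seldom hold it, so this count says little about the list. Half-sites with other letters and other spacings were not searched. A match is a description of letters, not a bound site. The 4 windows below are shown because Ddx58 and Ifih1 are the tested genes with all ligand libraries below DMSO, and Isg15 and Ifit1 are standard reporters of interferon. Capitals mark matches to the ISRE core on either strand, and each window runs 5′ to 3′ on the strand of its gene. The Ddx58 window is chr4:40239776-40240075 (minus strand), the Ifih1 window chr2:62646206-62646505 (minus), the Isg15 window chr4:156200769-156201068 (minus) and the Ifit1 window chr19:34640639-34640938 (plus).
Ddx58: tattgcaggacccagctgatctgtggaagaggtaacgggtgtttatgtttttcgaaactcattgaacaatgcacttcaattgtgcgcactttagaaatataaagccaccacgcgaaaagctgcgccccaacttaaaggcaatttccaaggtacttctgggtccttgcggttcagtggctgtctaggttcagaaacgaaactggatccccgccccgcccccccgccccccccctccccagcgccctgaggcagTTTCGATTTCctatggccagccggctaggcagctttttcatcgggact
Ifih1: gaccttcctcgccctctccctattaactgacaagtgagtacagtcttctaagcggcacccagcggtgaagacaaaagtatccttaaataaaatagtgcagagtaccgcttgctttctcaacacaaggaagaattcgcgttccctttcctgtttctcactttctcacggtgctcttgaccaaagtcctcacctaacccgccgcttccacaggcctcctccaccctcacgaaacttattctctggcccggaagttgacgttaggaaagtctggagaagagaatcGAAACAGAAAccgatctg
Isg15: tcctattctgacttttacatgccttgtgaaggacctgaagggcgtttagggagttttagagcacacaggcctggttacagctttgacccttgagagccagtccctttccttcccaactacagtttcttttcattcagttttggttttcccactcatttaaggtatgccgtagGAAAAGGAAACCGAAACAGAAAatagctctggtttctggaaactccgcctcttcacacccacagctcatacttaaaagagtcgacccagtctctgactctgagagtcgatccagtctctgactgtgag
Ifit1: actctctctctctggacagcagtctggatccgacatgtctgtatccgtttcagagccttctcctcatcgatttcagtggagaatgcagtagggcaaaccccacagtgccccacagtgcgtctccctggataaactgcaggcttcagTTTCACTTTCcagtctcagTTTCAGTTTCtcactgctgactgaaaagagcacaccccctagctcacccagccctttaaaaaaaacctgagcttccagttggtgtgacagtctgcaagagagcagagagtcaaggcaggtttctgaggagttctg
Ddx58 and Ifih1 each held 1 match, starting 2 and 32 bases after the annotated start. Isg15 held 3 overlapping matches in 1 block, and Ifit1 held 2 matches, the first of which starts 104 bases before the start. No window was matched for Oas1b, Oas2 or Mx2.

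The basal level of the list spanned a wide range. Scaled per kilobase of exon, the mean over the 15 libraries was highest for B2m, the light chain of MHC class I, at 352 CPM per kb, followed by Ifi27, a mitochondrial induced protein, at 52.9, Bst2, the tetherin that holds budding virus at the membrane, at 45.3, and Lgals3bp, a secreted galectin-binding glycoprotein, at 34.7. Trim25, the ubiquitin ligase that activates RIG-I, stood at 13.6 and Isg15, the ubiquitin-like modifier, at 10.4 CPM per kb. At the low end of the tested genes stood Oas3 at 0.096, Zbp1, a sensor of Z-form nucleic acid, at 0.117 and Mx1 at 0.191 CPM per kb. Of 20 interferon genes, 14 had 0 reads in every library, and none of the other 6 exceeded 11 reads in any, so none was tested. A count of 0 allows up to 3 reads in a library, and such limits cover counting error only. The receptor and signal genes were all measured: Ifnar1, for a chain of the type I receptor, lay between 69.8 and 97.1 CPM in the 15 libraries.

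Treatment with RAR ligands went with lower values across much of the list, and no gene of it passed the threshold in edgeR. In bulk libraries less RNA per cell and fewer cells with the transcript cannot be told apart. In the comparison of the 3 RAR ligand treatments with DMSO and CD3254, 38 of 44 genes had a log2 change below 0, with a median of -0.21. All genes tested had a median of 0.02, with 46.6% of them below 0. With the library set term 39 of 44 were below 0, with a median of -0.23, against 48.2% and a median of 0.01 for all genes. At an FDR (Benjamini-Hochberg adjusted p over all genes tested) of 0.05, 0 of 44 passed in either edgeR fit, and the smallest FDR was 1 without and 0.222 with the set term. On treatment alone the FDR was 1 for each of the 44 genes in each of the 8 comparisons made. The share of all genes that passed was 0.0359% and 0.0896%. At an unadjusted edgeR p of 0.05, 7 genes were lower and 0 higher on treatment alone, that is 15.9% lower against 0.58% of all genes lower and 0.872% higher. With the set term 15 were lower and 0 higher, that is 34.1% lower against 2.22% of all genes lower and 2.75% higher. The 44 genes were measured in the same libraries, so such counts are not made of observations independent of each other. The count of 15 stood between 10 without DMSO replicate 2 and 20 without AM580 replicate 1 when 1 library was left out, and the count of 7 between 5 and 8. DESeq2, a second count test, passed Oas2 on treatment alone, against 0.12% of all genes, and Ifih1, Oas1b and Oas2 with the set term, against 0.406%. The edgeR fit with the set term and without AM580 replicate 1 and the shallowest library passed Oas1b, against 0.2% of all genes.

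**Figure D1:**
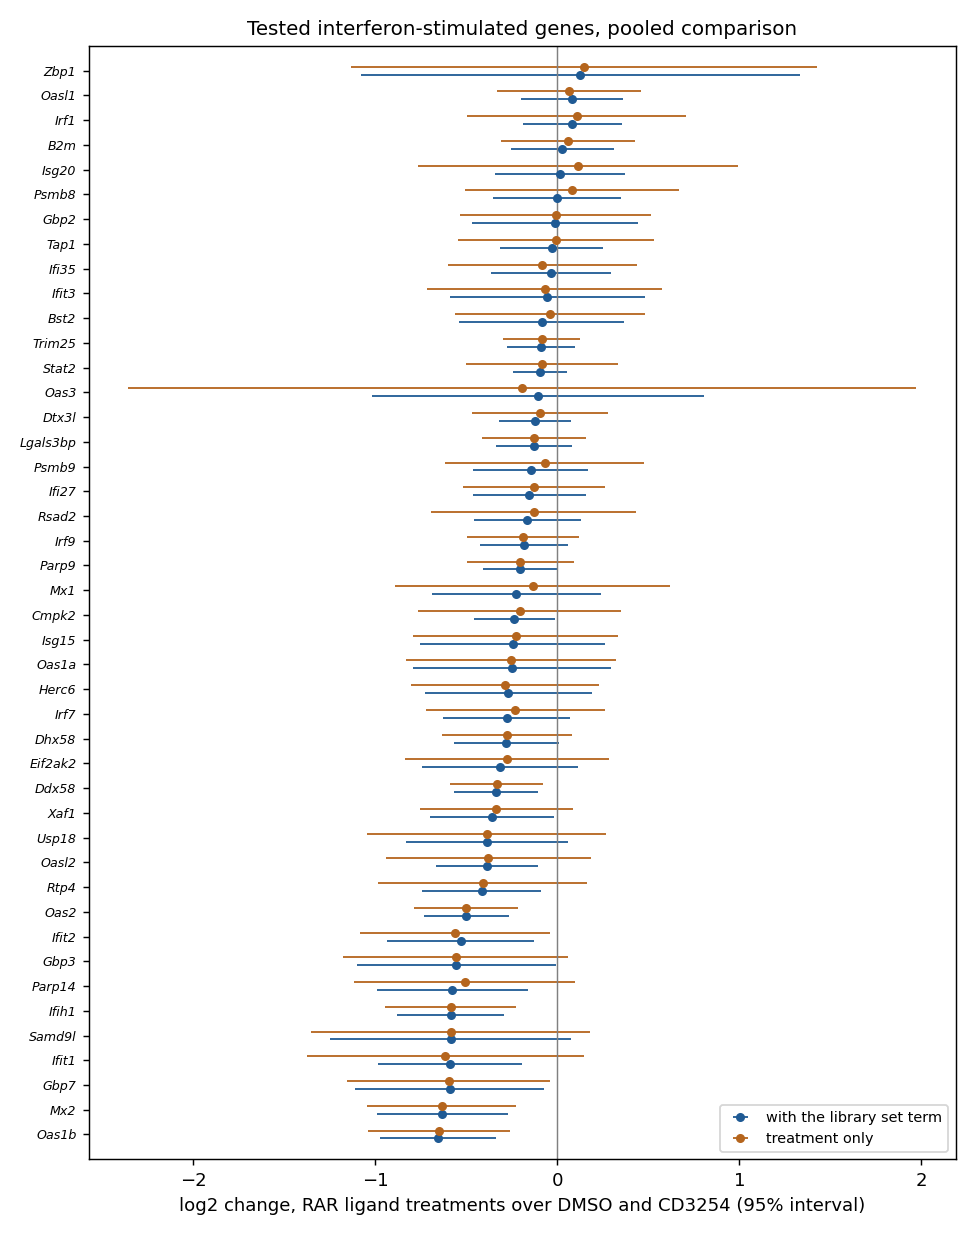
Log2 change (x axis) of each of the 44 tested genes (y axis) for the 3 RAR ligand treatments (9 libraries) over DMSO and CD3254 (6 libraries), with 95% intervals from edgeR. Blue marks the model that holds the library set, brown the model on treatment alone; most points lie below 0, from -0.66 for Oas1b to 0.13 for Zbp1 with the set term.

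Among the cytoplasmic RNA sensors, Ddx58 and Ifih1 lay below the vehicle in every ligand library. Ddx58 (ENSMUSG00000040296, GRCm38 chromosome 4, 40203773 to 40239828, minus strand) encodes RIG-I, whose name, retinoic acid-inducible gene I, comes from human leukaemia cells treated with retinoic acid. It had 15.6, 16.7 and 14.6 CPM with AM580, 17.7, 18.7 and 22.2 CPM with AM580 and CD3254, 15.7, 18.2 and 24.6 CPM with 9-cis retinoic acid and 22.9, 18.4 and 19.0 CPM with CD3254, against 26.4, 26.1 and 25.5 CPM with DMSO. All 12 ligand libraries lay below all 3 DMSO libraries, which lay within 1 CPM of each other. Against both references, 6 of the 9 RAR ligand libraries lay below every CD3254 and DMSO library. Against DMSO the log2 change was -0.73 ± 0.19 with AM580 (SE, edgeR FDR = 1), -0.41 ± 0.19 with AM580 and CD3254, -0.42 ± 0.19 with 9-cis retinoic acid and -0.37 ± 0.19 with CD3254. Under the model with library set the value for AM580 was -0.73 ± 0.17 (edgeR FDR = 0.647), and without AM580 replicate 1 it was -0.73 on treatment alone.

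Ifih1 (ENSMUSG00000026896, chromosome 2, 62595798 to 62646255, minus strand) encodes MDA5, which binds long double-stranded RNA. It had 3.84, 5.49 and 5.91 CPM with AM580, 6.05, 4.41 and 7.29 CPM with AM580 and CD3254, 4.74, 5.03 and 3.08 CPM with 9-cis retinoic acid and 6.55, 6.70 and 7.56 CPM with CD3254, against 8.67, 8.39 and 7.97 CPM with DMSO. Here too all 12 ligand libraries lay below all 3 DMSO libraries, and 8 of the 9 RAR ligand libraries lay below every CD3254 and DMSO library. Of the 44 genes, only Ddx58 and Ifih1 had 12 ligand libraries below 3 DMSO libraries without overlap, which is 4.55% of the list, against 0.102% of all genes. The opposite arrangement held for 0 of 44, against 0.102% of all genes. All the ligand groups are set against the same 3 DMSO libraries here. The log2 change of Ifih1 against DMSO was -0.95 ± 0.26 with 9-cis retinoic acid (edgeR FDR = 1), -0.71 ± 0.26 with AM580, -0.49 ± 0.26 with AM580 and CD3254 and -0.27 ± 0.26 with CD3254. With the set term the 9-cis retinoic acid value was -0.93 ± 0.22 (edgeR FDR = 0.742), and without 9-cis retinoic acid replicate 3 it was -0.76 on treatment alone.

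The other sensors and their regulators were more mixed. Dhx58, for LGP2, a helicase that tunes RIG-I and MDA5, had 3.52, 3.46 and 2.77 CPM with AM580, 2.35, 3.01 and 1.97 CPM with AM580 and CD3254, 2.52, 2.58 and 2.05 CPM with 9-cis retinoic acid and 3.10, 2.32 and 3.23 CPM with CD3254, against 3.62, 4.02 and 3.27 CPM with DMSO. In all, 10 of 12 ligand libraries lay below all 3 DMSO libraries. Its log2 change against DMSO was -0.60 ± 0.26 with 9-cis retinoic acid and -0.33 ± 0.26 with CD3254. Eif2ak2, for PKR, the kinase that stops translation on double-stranded RNA, had 9.77, 31.4 and 34.4 CPM with AM580, 36.0, 20.8 and 43.1 CPM with AM580 and CD3254, 25.3, 33.0 and 16.4 CPM with 9-cis retinoic acid and 28.7, 36.6 and 39.7 CPM with CD3254, against 28.3, 29.3 and 38.2 CPM with DMSO. AM580 replicate 1 was its lowest library, and the groups overlapped throughout. In this role 5 of 6 tested genes lay below 0 in the pooled comparison, and Zbp1, with at most 37 reads, lay at 0.15 ± 0.59.

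**Figure D2:**
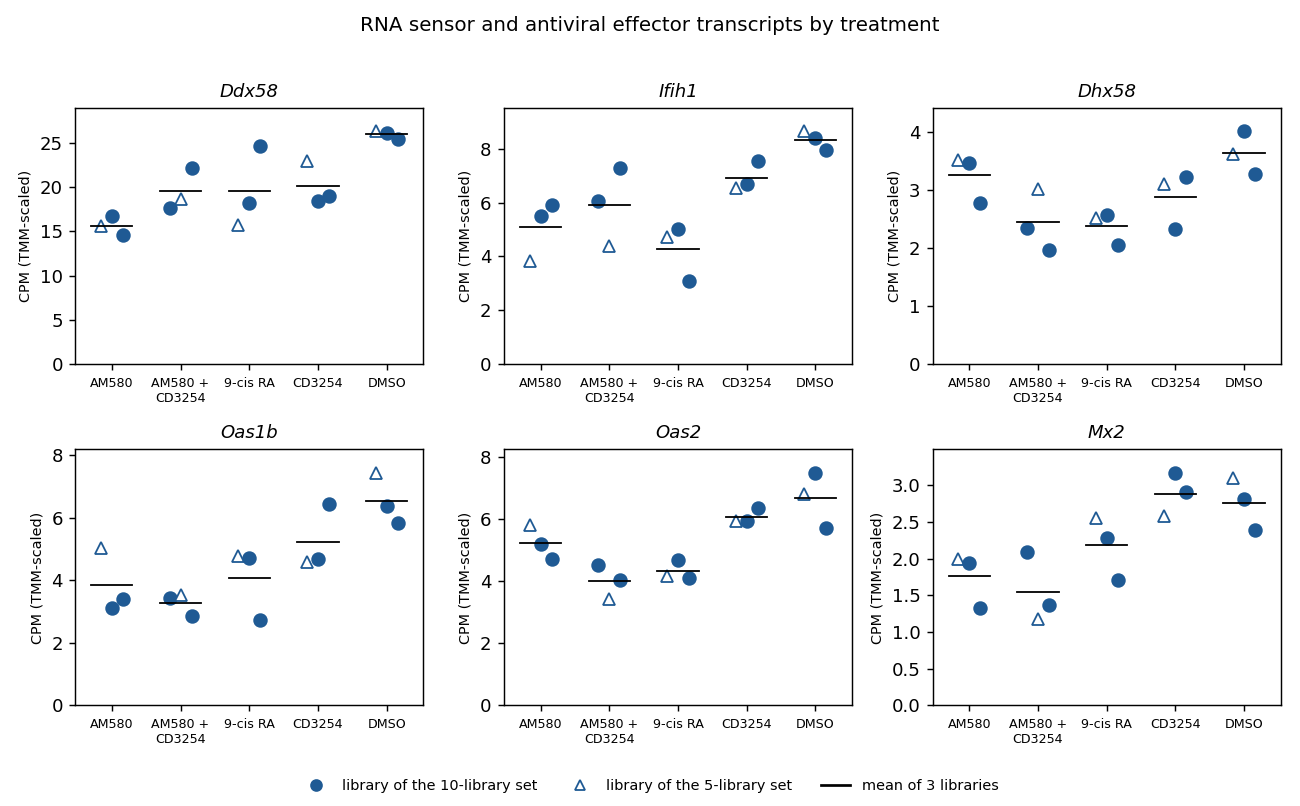
CPM (y axis) of 3 RNA sensor genes and 3 antiviral effector genes in each library, by treatment (x axis); filled circles are libraries of the 10-library set, open triangles those of the 5-library set, and bars are means of 3. Every ligand library of Ddx58 and Ifih1 lies below the 3 DMSO libraries, at 25.5 CPM or more and 7.97 CPM or more.

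Among the antiviral effectors Oas1b had the lowest pooled value, and Oas2 and Mx2 were likewise named for their small p-values. Oas1b (ENSMUSG00000029605, chromosome 5, 120812635 to 120824163, plus strand), a member of the family whose active enzymes make the second messenger of the ribonuclease RNase L and which is known in mice for flavivirus resistance, had 5.05, 3.11 and 3.42 CPM with AM580, 3.45, 3.55 and 2.87 CPM with AM580 and CD3254, 4.77, 4.71 and 2.74 CPM with 9-cis retinoic acid and 4.59, 4.69 and 6.45 CPM with CD3254, against 7.45, 6.37 and 5.83 CPM with DMSO. All 9 RAR ligand libraries, and 11 of 12 ligand libraries, lay below the 3 DMSO libraries. Against both references, 6 of the 9 lay below every CD3254 and DMSO library. Its log2 change against DMSO was -0.99 ± 0.29 with AM580 and CD3254 (edgeR FDR = 1), -0.76 ± 0.28 with AM580, -0.68 ± 0.29 with 9-cis retinoic acid and -0.32 ± 0.28 with CD3254. The annotation used here types Oas1b as a polymorphic pseudogene, a gene that is disrupted in some strains. Reads of Oas1b may be shared with its close paralogs, so its level is uncertain.

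Oas2 (ENSMUSG00000032690, chromosome 5, 120730333 to 120749853, minus strand), another synthetase, had 5.81, 5.19 and 4.71 CPM with AM580, 4.52, 3.44 and 4.04 CPM with AM580 and CD3254, 4.17, 4.66 and 4.11 CPM with 9-cis retinoic acid and 5.94, 5.92 and 6.34 CPM with CD3254, against 6.79, 7.49 and 5.71 CPM with DMSO. Its CD3254 libraries lay with DMSO, and 8 of 9 RAR ligand libraries lay below all 6 of these. Against DMSO the log2 change was -0.73 ± 0.21 with AM580 and CD3254 (edgeR FDR = 1) and -0.13 ± 0.21 with CD3254. In the pooled comparison it was -0.50 ± 0.13 (edgeR FDR = 1), the smallest p of the list, and -0.50 ± 0.11 with the set term (edgeR FDR = 0.222).

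Mx2 (ENSMUSG00000023341, chromosome 16, 97535308 to 97560900, plus strand), which the annotation likewise types as a polymorphic pseudogene and whose intact form is a dynamin-like antiviral GTPase, had 2.00, 1.94 and 1.33 CPM with AM580, 2.08, 1.182 and 1.37 CPM with AM580 and CD3254, 2.55, 2.28 and 1.71 CPM with 9-cis retinoic acid and 2.57, 3.17 and 2.90 CPM with CD3254, against 3.09, 2.81 and 2.39 CPM with DMSO. As for Oas2, 8 of 9 RAR ligand libraries lay below all 6 libraries of CD3254 and DMSO. Over CD3254 its log2 change was -0.90 ± 0.30 with AM580 and CD3254 (edgeR FDR = 1), -0.71 ± 0.30 with AM580 and -0.39 ± 0.30 with 9-cis retinoic acid, and CD3254 over DMSO was 0.06 ± 0.30. Mx2 held between 20 and 142 reads a library, so counting error is a part of this spread.

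Ifit1, which binds viral RNA caps, had 5.93, 2.54 and 3.42 CPM with AM580, 3.85, 5.88 and 3.22 CPM with AM580 and CD3254, 8.84, 5.00 and 1.71 CPM with 9-cis retinoic acid and 9.73, 4.91 and 5.24 CPM with CD3254, against 11.7, 5.74 and 3.87 CPM with DMSO. In every treatment the library of the 5-library set was the highest of the 3. The pooled log2 change of Ifit1 was -0.62 ± 0.35 on treatment alone and -0.59 ± 0.18 with the set term (edgeR FDR = 0.673). Ifit2, a partner of Ifit1, and Gbp7, a guanylate-binding GTPase, were at -0.56 ± 0.24 and -0.60 ± 0.26 on treatment alone.

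For the next 4 effectors each ligand group overlapped DMSO. Rsad2, for viperin, had 5.90, 2.45 and 2.13 CPM with AM580, 3.01, 4.23 and 3.22 CPM with AM580 and CD3254, 5.23, 2.94 and 2.91 CPM with 9-cis retinoic acid and 4.19, 3.37 and 2.99 CPM with CD3254, against 6.03, 3.23 and 3.69 CPM with DMSO. In each treatment the library of the 5-library set was the highest for Rsad2. Mx1, the nuclear relative of Mx2, had 1.29, 0.574 and 0.516 CPM with AM580, 0.318, 0.896 and 0.400 CPM with AM580 and CD3254, 1.19, 0.426 and 0.684 CPM with 9-cis retinoic acid and 1.03, 0.491 and 0.650 CPM with CD3254, against 0.937, 0.876 and 0.553 CPM with DMSO, with at most 44 reads in a library. Oas1a, an active oligoadenylate synthetase, had 8.57, 4.90 and 5.35 CPM with AM580, 5.18, 3.65 and 2.82 CPM with AM580 and CD3254, 4.99, 8.11 and 4.87 CPM with 9-cis retinoic acid and 4.72, 7.21 and 6.69 CPM with CD3254, against 6.08, 10.1 and 2.92 CPM with DMSO. Its DMSO libraries spanned nearly the whole range of the others. Bst2 had 82.7, 30.4 and 29.2 CPM with AM580, 36.1, 38.7 and 26.2 CPM with AM580 and CD3254, 45.3, 49.7 and 26.4 CPM with 9-cis retinoic acid and 37.2, 38.1 and 40.1 CPM with CD3254, against 42.7, 58.3 and 32.0 CPM with DMSO. Among effectors 17 of 19 tested genes lay below 0 in the pooled comparison, with a median of -0.26, and 5 were lower at an unadjusted edgeR p of 0.05 on treatment alone and 9 with the set term, against 0.58% and 2.22% of all genes.

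Of the 5 tested genes for transcription factors and signal, 4 lay below 0 in the pooled comparison, with a median of -0.19, and with AM580 and CD3254 over DMSO all 5 did, with a median of -0.44. Irf7, the factor that amplifies type I interferon, had 30.4, 11.4 and 12.8 CPM with AM580, 11.6, 14.9 and 8.76 CPM with AM580 and CD3254, 19.7, 16.5 and 13.2 CPM with 9-cis retinoic acid and 16.9, 14.96 and 15.2 CPM with CD3254, against 23.2, 24.3 and 13.6 CPM with DMSO. Its log2 change with AM580 and CD3254 was -0.79 ± 0.36, and AM580 replicate 1 held the highest value of all 15 libraries. Irf9, the DNA-binding subunit of the STAT complex, had 43.6, 37.7 and 33.2 CPM with AM580, 34.3, 23.8 and 33.7 CPM with AM580 and CD3254, 27.1, 43.2 and 35.9 CPM with 9-cis retinoic acid and 31.1, 41.3 and 40.2 CPM with CD3254, against 34.9, 50.3 and 39.2 CPM with DMSO. All 3 libraries of AM580 with CD3254 lay below all 3 DMSO libraries, the nearest at 34.3 against 34.9 CPM. Each other ligand group overlapped DMSO. The share of all genes parted in this way is not given, so this is only a description of Irf9. Stat2, its partner, had 36.4, 64.4 and 60.4 CPM with AM580, 63.2, 34.9 and 60.8 CPM with AM580 and CD3254, 40.7, 60.7 and 64.7 CPM with 9-cis retinoic acid and 43.0, 62.0 and 64.3 CPM with CD3254, against 41.8, 69.5 and 63.0 CPM with DMSO. In each treatment the library of the 5-library set was the lowest. Irf1, an early responder to interferon gamma, had 65.1, 29.0 and 22.4 CPM with AM580, 27.5, 53.6 and 39.5 CPM with AM580 and CD3254, 66.5, 30.5 and 42.4 CPM with 9-cis retinoic acid and 55.9, 27.5 and 26.4 CPM with CD3254, against 51.6, 33.2 and 38.1 CPM with DMSO. Here the library of the 5-library set was the highest in each treatment, and the pooled change was 0.11 ± 0.28, which turned to -0.09 without AM580 replicate 1. Usp18, the protease that removes ISG15 and damps the receptor, had 10.2, 3.01 and 6.32 CPM with AM580 and CD3254, against 8.16, 18.4 and 8.14 CPM with DMSO, where replicate 2 stood apart.

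In the group of ubiquitin-like conjugation, PARP and other induced genes all 10 tested lay below 0 in the pooled comparison, with a median of -0.22. At an unadjusted edgeR p of 0.05, 0 were lower and 0 higher on treatment alone, against 0.58% of all genes lower and 0.872% higher. With the set term 4 were lower and 0 higher, against 2.22% and 2.75% of all genes. Isg15 had 12.6, 7.61 and 6.43 CPM with AM580, 7.35, 7.13 and 4.12 CPM with AM580 and CD3254, 8.67, 9.67 and 2.91 CPM with 9-cis retinoic acid and 6.79, 9.04 and 8.08 CPM with CD3254, against 8.67, 12.1 and 7.01 CPM with DMSO. The groups overlapped, and the pooled value was -0.23 ± 0.26. Parp14, a mono-ADP-ribosyltransferase, was at -0.51 ± 0.28, and at -0.58 ± 0.19 with the set term (edgeR FDR = 0.786). Rtp4, a receptor transport protein, had 10.4, 4.30 and 8.81 CPM with AM580 and CD3254, against 9.20, 19.8 and 11.5 CPM with DMSO. Lgals3bp had 92.9, 106 and 95.6 CPM with AM580, 96.3, 77.8 and 74.6 CPM with AM580 and CD3254, 73.2, 116 and 125 CPM with 9-cis retinoic acid and 87.8, 102 and 104 CPM with CD3254, against 91.5, 131 and 107 CPM with DMSO, with overlap between all groups. Parp9 and Dtx3l, which encode a complex of a macrodomain PARP and a ubiquitin ligase, overlap on opposite strands, and so do Psmb9 and Tap1 below. Without a stated strand setting their reads cannot be told apart in the shared stretch.

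The antigen-processing genes lay near 0 in the pooled comparison of all 15 libraries. B2m had 536, 245 and 251 CPM with AM580, 264, 325 and 230 CPM with AM580 and CD3254, 335, 273 and 313 CPM with 9-cis retinoic acid and 296, 250 and 259 CPM with CD3254, against 311, 370 and 290 CPM with DMSO. Psmb9, an immunoproteasome subunit, had 38.7, 13.2 and 11.9 CPM with AM580, 12.1, 19.2 and 11.4 CPM with AM580 and CD3254, 23.5, 16.3 and 14.5 CPM with 9-cis retinoic acid and 21.1, 15.6 and 16.1 CPM with CD3254, against 21.9, 20.0 and 16.5 CPM with DMSO. AM580 replicate 1 was the highest library for B2m, Psmb9, Psmb8 and Bst2, and also for Tap1, a peptide transporter subunit. Tap1 had 63.8, 26.4 and 23.2 CPM with AM580, 26.2, 47.2 and 24.6 CPM with AM580 and CD3254, 43.6, 31.9 and 44.3 CPM with 9-cis retinoic acid and 44.7, 29.0 and 27.4 CPM with CD3254, against 53.8, 37.5 and 29.6 CPM with DMSO. In the pooled comparison the 4 genes lay between -0.07 and 0.08 with a median of 0.02, and 0 of them passed an unadjusted edgeR p of 0.05 in either fit. Of all genes, 0.58% were lower and 0.872% higher at that p on treatment alone, and 2.22% and 2.75% with the set term. With AM580 and CD3254 over DMSO all 4 lay below 0, with a median of -0.32. The place near 0 in the pooled comparison rested in part on AM580 replicate 1. Without that library the pooled values on treatment alone were -0.32 for Psmb9, -0.21 for Tap1 and -0.10 for B2m.

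Each treatment was then set against DMSO on its own. AM580 asks what the RARα agonist alone does: 33 of 44 genes lay below 0, with a median of -0.16, and 36 with a median of -0.23 with the set term. Of all genes, 47.3% lay below 0 on treatment alone and 49.3% with the set term. At FDR 0.05 edgeR passed 0 of 44, against 0% and 0.0299% of all genes in the fits without and with the set term. Below an unadjusted edgeR p of 0.05, 4 genes were lower (Ddx58, Ifih1, Mx2 and Oas1b) and 0 higher, against 0.609% of all genes lower and 0.609% higher. Under the model with library set 7 were lower and 0 higher, against 2.12% and 2.09% of all genes. AM580 replicate 1 weighed on this comparison: without it the median was -0.39, and 16 genes were lower with the set term. Without DMSO replicate 1 that count was 4, and without AM580 replicate 3 the count on treatment alone was 2. DESeq2 with the set term passed Ddx58, against 0.102% of all genes.

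AM580 and CD3254 together asks what both receptor partners' ligands do. Of 44 genes, 40 lay below 0 in both fits, with a median of -0.43 in each, the lowest of the 4 comparisons with DMSO. With 1 library left out, this median ran from -0.51 to -0.33 on treatment alone. That of AM580 over DMSO ran from -0.39, without AM580 replicate 1, to -0.11, so the ranges overlap. The share of all genes below 0 was 50.2% on treatment alone and 51.3% with the set term. At FDR 0.05 edgeR passed 0 of 44, against 0.0179% and 0.125% of all genes. At an unadjusted edgeR p of 0.05, 6 genes were lower (Ddx58, Dhx58, Irf7, Mx2, Oas1b and Oas2) and 0 higher, against 0.609% of all genes lower and 0.89% higher. With the set term 14 were lower and 0 higher, against 2.62% and 2.17% of all genes, and Rtp4, Oasl2, Usp18, Lgals3bp and Irf9 were among those added. That count was 6 without DMSO replicate 2 and 9 without replicate 2 or 3 of the joint treatment, and the count of 6 on treatment alone was 3 without DMSO replicate 2, CD3254 replicate 3 or 9-cis retinoic acid replicate 2. DESeq2 with the set term passed Oas1b and Oas2, against 0.544% of all genes, and edgeR with the set term and without AM580 replicate 1 and the shallowest library passed Oas1b, against 0.641%.

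With 9-cis retinoic acid 38 of 44 genes lay below 0 in both fits, with medians of -0.25 and -0.24, against 47.8% and 48% of all genes. At FDR 0.05 edgeR passed 0 of 44, against 0% and 0.0299% of all genes. Below an unadjusted edgeR p of 0.05, 5 genes were lower (Ddx58, Dhx58, Ifih1, Oas1b and Oas2) and 0 higher, against 0.394% of all genes lower and 1.06% higher. Under the model with library set Oasl2 joined them, which made 6 lower and 0 higher, against 1.58% and 2.4% of all genes. The count of 5 was 2 without DMSO replicate 1 and 3 without DMSO replicate 2. DESeq2 with the set term passed Ifih1, against 0.131% of all genes. With CD3254, the RXR agonist, 34 of 44 lay below 0, with a median of -0.12, and 35 with a median of -0.13 with the set term. All genes had 51.9% below 0 on treatment alone and 51.3% with the set term. At FDR 0.05 edgeR passed 0 of 44, against 0% and 0.0239% of all genes. At an unadjusted edgeR p of 0.05, 0 genes were lower and 0 higher on treatment alone, against 0.155% and 0.299% of all genes, and 1 (Ddx58) was lower and 0 higher with the set term, against 1% and 0.98%. The 4 treatments share the DMSO libraries, so their values are not independent of each other.

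Each RAR ligand treatment was also set against the 3 CD3254 libraries, which these comparisons share. AM580 lay below 0 in 25 of 44 genes, with a median of -0.08, and in 26 with a median of -0.10 with the set term. Among all genes 47.3% lay below 0 on treatment alone and 48.5% with the set term. Below an unadjusted edgeR p of 0.05, 1 gene (Mx2) was lower and 0 higher, against 0.329% and 0.586% of all genes, and 4 (Ddx58, Ifit1, Mx2 and Parp14) lower and 0 higher with the set term, against 1.31% and 2.52%. AM580 and CD3254 together lay below CD3254 alone in 40 of 44 genes, with a median of -0.23, and in 39 with a median of -0.24 with the set term. The same held for 48.6% of all genes on treatment alone and 50.4% with the set term. Here 3 genes (Mx2, Oas1b and Oas2) were lower and 0 higher at an unadjusted edgeR p of 0.05, against 0.251% and 0.388% of all genes, and 4 lower and 0 higher with the set term, against 1.02% and 1.02%. 9-cis retinoic acid lay below CD3254 in 30 of 44 genes, with a median of -0.12, and in 29 with a median of -0.13 with the set term. For all genes these shares were 46.2% on treatment alone and 46.6% with the set term. The 2 genes lower were Ifih1 and Oas2 in both edgeR fits, with 0 higher, against 0.424% lower and 0.603% higher of all genes on treatment alone and 1.09% and 2.11% with the set term. Without 9-cis retinoic acid replicate 3 or CD3254 replicate 3 that count was 0 on treatment alone. At FDR 0.05 edgeR passed 0 of 44 in all 3 comparisons and both fits, against 0% of all genes on treatment alone in each, and, with the set term, 0.012% for AM580, 0.0299% for the joint treatment and 0.0299% for 9-cis retinoic acid.

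**Figure D3:**
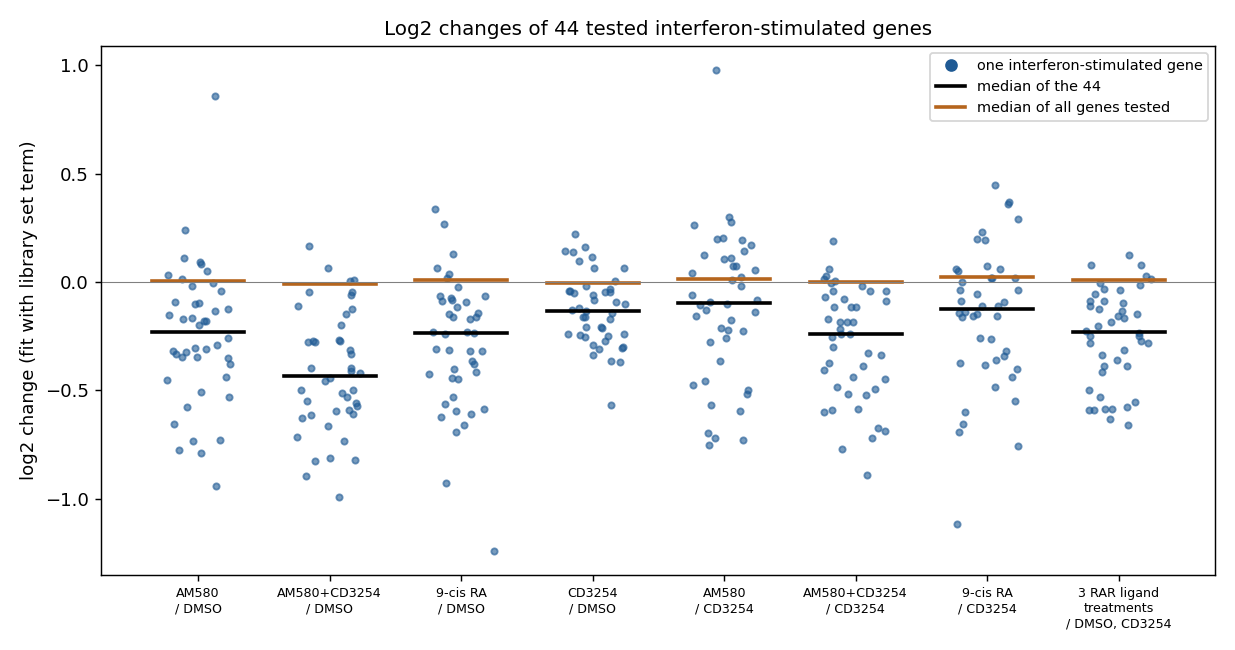
Log2 changes (y axis, edgeR fit with the library set term) of the 44 tested genes in 8 comparisons (x axis); each point is a gene, the black bar is the median of the 44 and the brown bar the median of all 16736 genes. The black bar is lowest for AM580 and CD3254 over DMSO, at -0.43, and nearest to 0 for AM580 over CD3254, at -0.10.

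The list was also read library by library. Taking for each library the difference of log2 CPM from the DMSO libraries of its own set, the median over the 44 genes was -0.02, -0.31 and -0.40 in the AM580 libraries, -0.29, -0.37 and -0.52 in those of AM580 with CD3254, and -0.26, -0.15 and -0.44 in those of 9-cis retinoic acid. It was -0.19, -0.08 and -0.10 in the CD3254 libraries, against 0, 0.15 and -0.15 in the DMSO libraries. The value of DMSO replicate 1 is 0 because it is the only DMSO library of the 5-library set. DMSO replicates 2 and 3 are measured from their own mean, so their values are equal and opposite by construction, and only the distance between them describes the vehicle. Of the 9 RAR ligand libraries, 7 lay below DMSO replicate 3, the exceptions being AM580 replicate 1 and 9-cis retinoic acid replicate 2. CD3254 replicate 1, at -0.19, lay below it too, so this place was not particular to RAR ligands. Libraries of the 5-library set are measured from a different DMSO library, so the order is a description only. The median over all genes tested stayed between -0.01 and 0.01 in the 15 libraries.

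**Figure D4:**
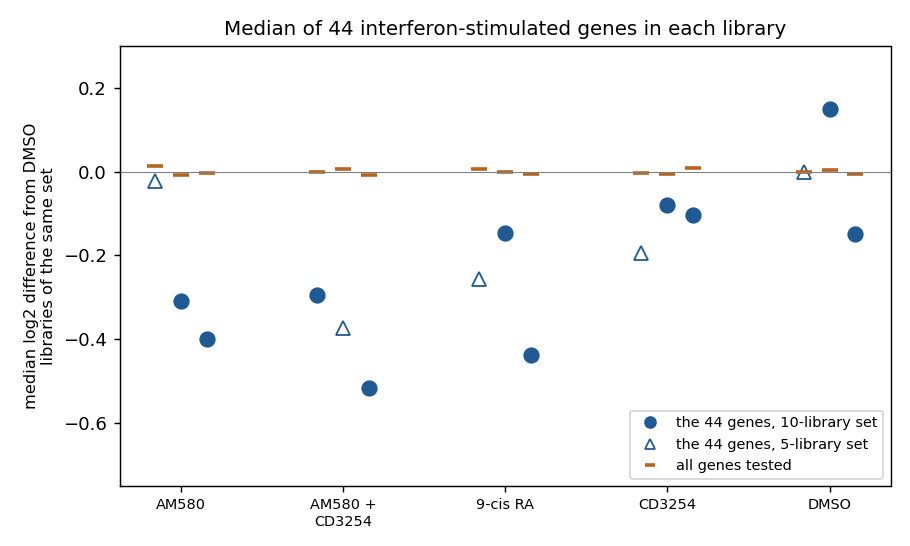
Median over the 44 genes of the log2 CPM difference from the DMSO libraries of the same library set (y axis), for each library by treatment (x axis); filled circles are the 10-library set, open triangles the 5-library set, and brown dashes the median of all genes tested. The libraries of AM580 with CD3254 lie between -0.52 and -0.29, and the DMSO libraries between -0.15 and 0.15.

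Between the library sets the list split in both directions. In all 5 treatments the library of the 5-library set was above both others for 8 of 44 genes (Irf1, Ifit1, Isg20, Mx1, Oas3, Rsad2, Psmb8 and Psmb9), which is 18.2%, against 18.4% of all genes. It was below both for 7 (Stat2, Oasl2, Cmpk2, Parp14, Dtx3l, Rtp4 and Ifi35), which is 15.9%, against 17.5% of all genes, so the list moved with the sets about as often as genes at large. Oas3, another synthetase, averaged 1.73 ± 0.66 CPM in the 5 libraries and 0.15 ± 0.15 CPM in the other 10. Isg20, an exonuclease for single-stranded RNA, averaged 24.5 ± 4.8 CPM in the 5 and 9.59 ± 2.0 CPM in the other 10, and Irf1 58.5 ± 6.8 CPM in the 5 and 31.6 ± 6.5 CPM in the other 10. In the other direction Stat2 averaged 39.3 ± 3.5 CPM in the 5 and 63.3 ± 2.7 CPM in the other 10 (SD, n = 5 and 10). The sets were read from the same counts, so no test is given between them. Ddx58, Oas2 and Mx2 differed between the sets by no more than 0.04 on the log2 scale.

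**Figure D5:**
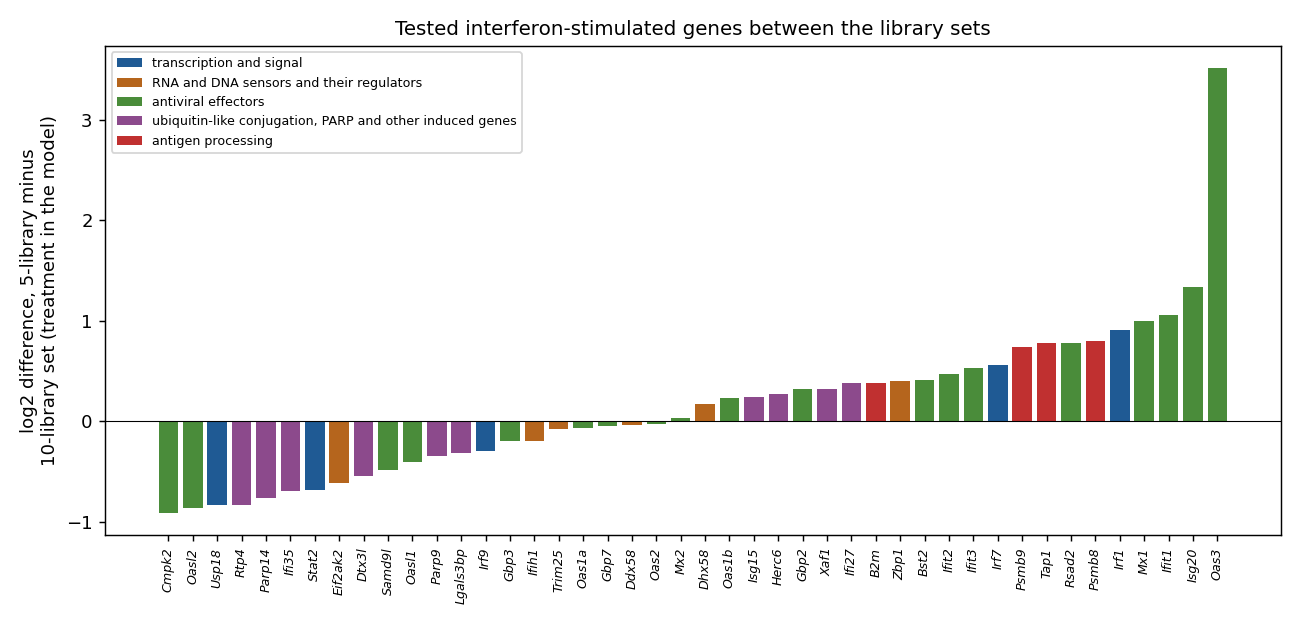
Log2 difference of the 5-library set minus the 10-library set, with treatment in the model (y axis), for each of the 44 tested genes (x axis), coloured by role; a description with no test. Values run from -0.91 for Cmpk2 to 3.51 for Oas3, and Ddx58, Oas2 and Mx2 lie near 0.

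Other genes of the same pathways were read from further lists. Of 66 further interferon-stimulated genes in the table, 44 were tested. Over DMSO on treatment alone, 33 of these lay below 0 with AM580, 33 with AM580 and CD3254, 34 with 9-cis retinoic acid and 32 with CD3254. The medians were -0.15, -0.18, -0.07 and -0.10. The share of all genes below 0 was 47.3%, 50.2%, 47.8% and 51.9% in the same order. In the pooled comparison 24 of these 44 lay below 0, with a median of -0.06, and 31 with a median of -0.05 with the set term. Among all genes 46.6% and 48.2% lay below 0. On treatment alone edgeR passed 0 of these 44 in the pooled comparison at FDR 0.05, against 0.0359% of all genes. At an unadjusted edgeR p of 0.05 it passed 0, where 0.58% of all genes were lower and 0.872% higher. With the set term 4 were lower at an unadjusted edgeR p of 0.05, Irgm1, Uba7 and Tdrd7 among them, and 0 were higher, against 2.22% and 2.75% of all genes. Of 17 receptor and signal genes 5 lay below 0 in the pooled comparison on treatment alone, of 17 upstream sensing genes 8 did, and of 18 further antigen-processing genes 7 did, against 46.6% of all genes. At FDR 0.05 edgeR passed 0 of each in either fit. The share of all genes that passed was 0.0359% without and 0.0896% with the set term.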

How the data were processed

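RNA of 15 libraries of 266-6 cells, 5 treatments with 3 libraries each, was sequenced. The authors deposited raw read counts per Ensembl gene. Reads were handled with FastQC, HISAT2 2.2.1, SAMtools 1.18 and HTSeq on mm10, per the submitters' processing notes; the strand setting is not given in the sources used here. Columns were matched to samples by their labels. Symbols came from a GRCm38 annotation for 42462 of 43432 genes, and the 5 summary categories of reads without a gene were left out of library sizes. Counts were tested with edgeR 4.0.16 (TMM, filterByExpr, robust quasi-likelihood F-test, Benjamini-Hochberg over 16736 genes, threshold 0.05; R 4.3.3). DESeq2 1.42.0 was an alternative. All 5 treatments shared 1 fit with 10 residual degrees of freedom. A term for library set, which side of 0 a library has on the leading component of its log2 CPM (prior count 2), leaves 9 and was taken from earlier results of these data. Further alternatives were chosen after seeing the data: DESeq2 with that term, the term without AM580 replicate 1 and the third 9-cis retinoic acid library, and leaving out each library in the fit with the term. The edgeR steps were also run on simulated counts. These had a lower dispersion than estimated from the data, so that run does not show how the tests perform here. CPM values are the counts scaled by TMM library sizes.

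The list, the other gene lists and the comparisons were chosen with earlier results of these data known. Genes named with values in every library were those with the 2 smallest p-values of the list in each of 8 comparisons on treatment alone, plus representatives of each role; others named were chosen after their values were seen. The labels do not say whether replicate numbers pair the libraries, and the main fits held no term for them. No 2 libraries of a treatment agreed within sampling noise. Of the genes in the further lists, a single one is not reported here by name.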

Additional observations from a re-analysis of the deposited data

How the results depend on the processing

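Across the alternatives run, edgeR on treatment alone passed 0 of the 44 genes in every comparison with each single library left out. The alternatives in which a gene passed were DESeq2 on treatment alone, with 1 gene in the pooled comparison of RAR ligand treatments with DMSO and CD3254, DESeq2 with the library set term, with 1 gene for AM580, 2 for AM580 and CD3254, 1 for 9-cis retinoic acid (each over DMSO) and 3 in the pooled comparison, and edgeR with the set term and neither AM580 replicate 1 nor the third 9-cis retinoic acid library, with 1 gene for AM580 and CD3254 over DMSO and 1 in the pooled comparison. RLE scaling factors, no filter on low counts and the 10-library set alone also left 0 genes past the threshold in edgeR. The cause was not tested. The number of genes lower at an unadjusted p of 0.05 moved more: over the alternatives other than leaving out 1 library, it ran from 3 to 17 for AM580 over DMSO (4 on treatment alone), from 4 to 24 for AM580 and CD3254 over DMSO (6), from 2 to 9 for 9-cis retinoic acid over DMSO (5), from 0 to 3 for CD3254 over DMSO (0) and from 7 to 21 in the pooled comparison (7). Each upper value came with the set term and neither of the 2 libraries named above, which the 10-library set alone matched for CD3254. For the comparisons with CD3254 they ran from 0 to 8 for AM580 (1), 3 to 15 for AM580 and CD3254 (3) and 1 to 5 for 9-cis retinoic acid (2). The share of all genes at that p is not given for these alternatives or with 1 library left out. These counts are therefore not a result about the list alone. With the set term and without the 2 libraries, edgeR at FDR 0.05 also passed more of all genes. That share was 0.641% for AM580 and CD3254 over DMSO, against 0.0179% on treatment alone, and 0.2% against 0.0359% in the pooled comparison. The number of genes higher was 0 for AM580 over DMSO in every setting.

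Genes near 0 in the pooled comparison changed sign without passing. B2m was at -0.15 in the 10-library set alone, at -0.0038 with the set term without 9-cis retinoic acid replicate 3 and at -0.10 without that library and AM580 replicate 1, where Irf1 was at -0.022. With 1 library left out the log2 change ran from -0.092 to 0.33 for Irf1, -0.10 to 0.12 for B2m, -0.32 to 0.018 for Psmb9, -0.21 to 0.12 for Tap1, -0.26 to 0.081 for Bst2, -0.33 to 0.032 for Mx1 and -0.33 to 0.022 for Rsad2. The lowest value came without AM580 replicate 1 for each of these genes except Mx1.

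With the replicate number as a block, Tap1 was at 0.011 and 0 of 44 genes passed in any comparison. At an unadjusted edgeR p of 0.05 the block left 5 genes lower for AM580 over DMSO and 9 in the pooled comparison. The share of all genes at that p with the block is not given. Correlations between deviations of same-numbered libraries ran from -0.66 to 0.81 for number 1, -0.68 to 0.58 for number 2 and 0.04 to 0.59 for number 3. They were thus of both signs for numbers 1 and 2, and all above 0 for number 3. The 5-library set held replicate 1 of each treatment except AM580 with CD3254, where it held replicate 2. What the numbers stand for is not stated in the labels.

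Depth limits genes such as Zbp1, Mx1 and Oas3, with at most 88 reads in a library.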
